A study of Rattus norvegicus with 20 samples.

Results

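The let-7 and miR-98 family was followed across soleus muscle and dorsal root ganglia (DRGs) of rats with chronic injury of the sciatic nerve. The 10 members were taken by name from the array, as the 8 mature strands rno-let-7a, rno-let-7b, rno-let-7c, rno-let-7d, rno-let-7e, rno-let-7f, rno-let-7i and rno-miR-98 and the 2 star strands rno-let-7b* and rno-let-7d* (the rat prefix is left out from here on), of 350 miRNAs on the array, of which 348 had the same name in every file. All animals were male Sprague-Dawley rats. In the denervation group the right sciatic nerve had been cut 6 months earlier, with a segment removed and the stump buried. In the entrapment group a silastic tube that did not constrict the nerve had been in place for 6 months. In the decompression group such a tube was removed after 6 months and the rats were kept for 3 more months. The controls are labelled as sham, and what the sham operation consisted of is not given in the sources used here. Each tissue gave 3 arrays for each injury group and 1 sham array, 20 in all, and the labels do not say whether a sham array holds the RNA of 1 rat or of several, while the methods name several rats in every group, sham included.

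let-7 miRNAs are made from hairpin precursors. An enzyme of the nucleus, Drosha, and an enzyme of the cytoplasm, Dicer, cut the hairpin into a duplex, whose mature strand is loaded into an Argonaute protein and directs repression of messenger RNAs that pair with its seed. The other strand, marked with a star on this array, is mostly degraded. The RNA-binding protein LIN28 blocks maturation of the precursors, and mature let-7 is abundant in differentiated tissue, where growth-promoting genes such as Hmga2 and Ras genes are known targets.

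The mature sequences, taken from the RefSeq table on build GRCr8, are printed because they show what the members share and how little sets their probes apart. Bases 2 to 8, the seed, are in capitals, and all 10 names matched an entry.

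let-7a: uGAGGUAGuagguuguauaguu
let-7b: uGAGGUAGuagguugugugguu
let-7c: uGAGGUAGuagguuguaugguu
let-7d: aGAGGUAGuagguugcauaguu
let-7e: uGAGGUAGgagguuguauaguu
let-7f: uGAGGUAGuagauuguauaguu
let-7i: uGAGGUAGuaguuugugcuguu
miR-98: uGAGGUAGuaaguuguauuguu
let-7b*: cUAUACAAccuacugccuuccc
let-7d*: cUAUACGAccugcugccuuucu

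All 8 mature strands carried the seed GAGGUAG, and each star strand had a seed of its own. Counted from 1 at the 5′ end, with the base of let-7a first, let-7c differed from let-7a by A19G, let-7e by U9G and let-7f by G12A. let-7b differed by A17G and A19G, let-7d by U1A and U16C, and miR-98 by G11A and A19U. let-7i was the farthest from let-7a, with 4 substitutions. In 4 of the 28 pairs of mature members the strands differ by 1 base. How far the probes tell such strands apart was not tested, so a value of let-7a, let-7b, let-7c, let-7e or let-7f may hold signal of a near-identical member.

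Several members lie together in the genome. let-7d (chr17:16322273-16322294, plus strand) and let-7d* (chr17:16322327-16322348) come from 1 hairpin, whose mature strand starts 2128 bases from that of a let-7a copy and 1765 bases from that of a let-7f copy, all within the span of the long noncoding RNA gene LOC120097935. let-7b (chr7:118684044-118684065, plus strand) and let-7b* (chr7:118684098-118684119) come from 1 hairpin that starts downstream of a let-7c copy, with 408 bases between the starts of let-7c and let-7b and no other listed gene across them. miR-98 (chrX:24460663-24460684) lies 611 bases from the second let-7f copy, and both are within the span of Huwe1, a ubiquitin ligase gene. let-7e (chr1:67350243-67350264) is within the span of Spaca6, and let-7i (chr7:60527935-60527956, minus strand) within that of LOC134479799. let-7a, let-7c and let-7f each have 2 listed copies, and their array signals cannot be divided between the copies.

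The values are total gene signals of a single-colour Agilent array, scaled to the 75th percentile of each array within a tissue and called scaled signals here. The arrays differed in brightness before scaling. In soleus the percentile ran from 409 on the sham array to 2539 on denervation 2, and in the DRGs from 72.0 to 117. These 2 ranges cannot be compared, since they rest on 108 miRNAs in soleus and on all 348 in the DRGs. Over the 102 miRNAs detected on every array of both tissues they were 410 to 2593 and 612 to 1169. In the DRGs the 6 entrapment and decompression arrays (72.0 to 88.1) were all dimmer than the sham and denervation arrays (97.5 to 117). Of 45 control features, taken without scaling, 24 in the DRGs and 12 in soleus had entrapment and decompression values that did not overlap with the other 4 arrays. The scaled signals of 0 of the 10 members did so in either tissue, against 14.5% of all tested miRNAs in soleus and 34.2% in the DRGs. These counts are on unlike scales. Before scaling, DRG let-7f was at most 2491 on the 6 dimmer arrays and at least 2549 on the other 4. Unscaled DRG miR-98 was likewise at most 134 and at least 141. The soleus sham, denervation 1 and denervation 2 files have another layout than the rest. Muscle miRNAs (miR-1, miR-133a, miR-133b, miR-206 and miR-499) summed to 47965 to 299142 in soleus and 261 to 467 in the DRGs on a joint scale. Neuronal miRNAs (miR-124, miR-9, miR-183, miR-96 and miR-182) summed to 11.6 to 40.7 in soleus, with miR-124, miR-9 and miR-183 detected on no soleus array, and to 3363 to 4725 in the DRGs. Both tissue labels thus went with their markers. The samples were whole tissue, in which fewer cells of a type and less RNA per cell cannot be told apart.

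The mature strands were bright and the star strands dim. Mature strands were flagged as detected in 159 of 160 values, at 7.32 to 14.1 times their own measurement error. The exception was let-7a on the soleus sham array, a value of 3217 that lay among the highest for let-7a and was kept. Star strands were flagged as detected in 35 of 40 values. let-7b* was not detected on soleus denervation 1 and 2, and let-7d* was not detected on soleus entrapment 3, DRG entrapment 2 and DRG decompression 3. The flag drew a fine line for let-7b*, which counted as detected on the soleus sham array at 1.60 times its error and as not detected on denervation 1 at 1.66 times.

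**Figure D1:**
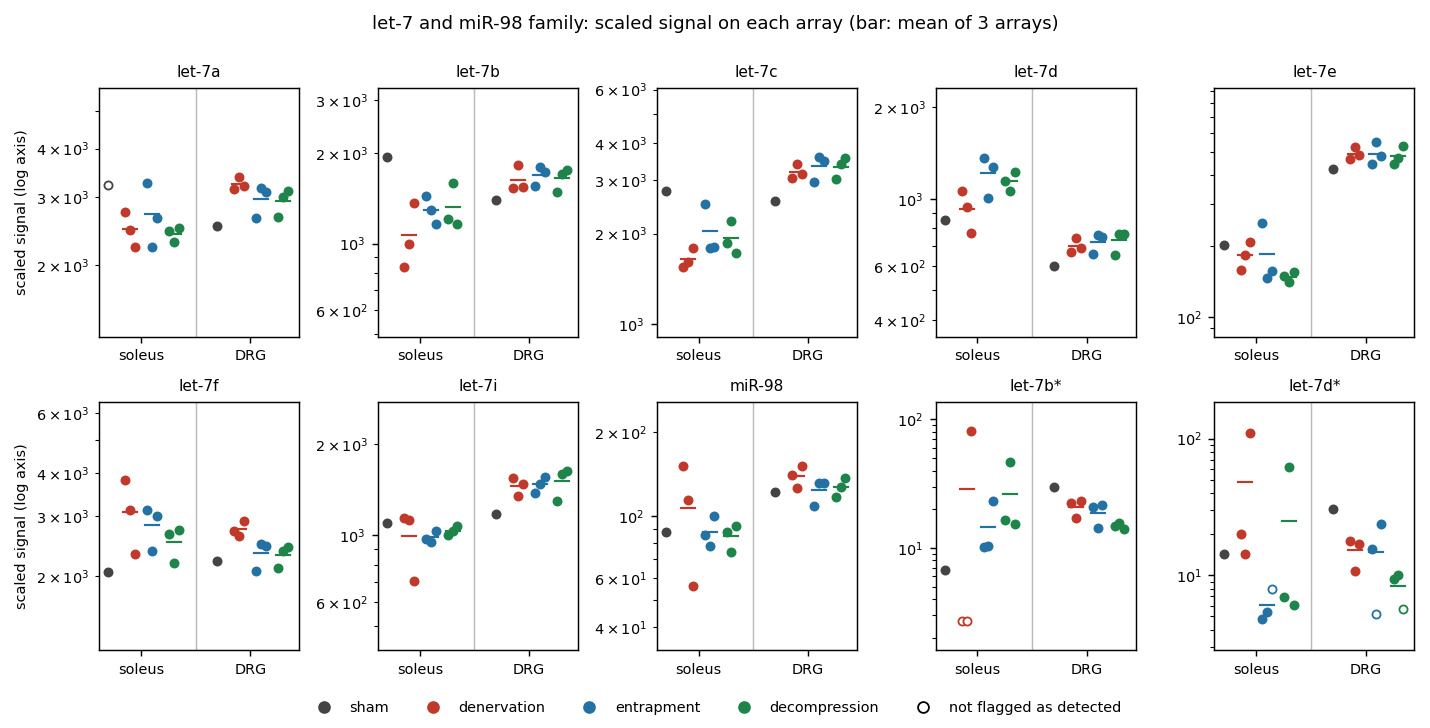
Scaled signal of each member on each of the 20 arrays, on a log axis with its own range in each panel. Points are arrays, short bars are means of 3 arrays, and open points were not flagged as detected. In soleus, let-7b and let-7c on all 9 injury arrays lie below the sham array, while let-7f lies above it, and the star strands spread far more than the mature strands.

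In soleus the question was whether denervation, entrapment or decompression moved the family away from sham. let-7b read 1943 on the sham array, 834, 996 and 1368 after denervation, 1440.5, 1289.7 and 1165 after entrapment, and 1208, 1597 and 1161 after decompression. All 9 injury arrays were below sham. let-7c, which differs from let-7b by 1 base, read 2778 on sham, 1549.7, 1616 and 1794 after denervation, 2507, 1792 and 1799 after entrapment, and 1858, 2197 and 1726 after decompression. It too lay below sham on all 9 arrays. let-7f read 2057 on sham, 3819.6, 3127 and 2318 after denervation, 3121, 2373 and 2990.5 after entrapment, and 2648, 2189.7 and 2725 after decompression. This member lay above sham on all 9 arrays and was most spread after denervation. The share of all tested miRNAs with every injury array on the same side of sham was not counted. let-7d read 853 on sham, 1059, 942 and 773 after denervation, 1362, 1009 and 1275 after entrapment, and 1141, 1065 and 1227 after decompression, so that 8 of 9 arrays were above sham.

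The 4 other mature strands had injury arrays on both sides of sham. let-7a ran from 2219 to 3261 over the injury arrays against 3217 on sham, let-7e from 141 to 251 against 202, let-7i from 707 to 1139 against 1097, and miR-98 from 56.0 to 150.4 against 87.7. let-7a was below sham on 8 of 9 arrays. let-7a and let-7e were most spread within entrapment, and let-7i and miR-98 within denervation, where denervation 3 held the lowest value of both.

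By limma with Benjamini-Hochberg adjustment over the 173 miRNAs tested in soleus, none of the 10 members passed the threshold of 0.05 against sham. After denervation 0 of 10 members passed, where 26% of all tested miRNAs did. let-7b had the largest difference of the mature strands, at -0.90 ± 0.38 (log2 difference ± SE, limma adjusted p = 0.113, lower than sham on 3 of 3 arrays), and was the only member with an unadjusted p under 0.05. Without denervation 3 the difference of let-7b was -1.09 and passed (limma adjusted p = 0.0303). After entrapment 0 of 10 passed, against 29.5% of all tested miRNAs, and after decompression 0 of 10 against 31.8%, with no member at an unadjusted p under 0.05 in either. The median difference of the 8 mature strands was -0.16 after denervation, -0.16 after entrapment and -0.25 after decompression, and that of all tested miRNAs was -0.07, -0.37 and -0.29. The 95% intervals of the mature strands ran from -1.76 to 1.41 after denervation and from -1.45 to 1.30 after entrapment, wide limits on what could be seen. In the DRGs, also with 1 sham array, they ran from -0.18 to 0.67 and from -0.34 to 0.70.

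Markers of another cell type also set the soleus sham array apart. The endothelial miRNAs miR-126 and miR-126*, of which 1 was detected on all soleus arrays, summed to 323 on sham and to 890 to 1455 on the 9 injury arrays, and both passed as higher in all 3 comparisons with sham. Leukocyte miRNAs (4 measured) summed to 609 on sham, 412 to 664 after denervation and 268 to 385 after entrapment or decompression. The part of these cells in the family's values was not tested.

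A second rule asked for at least a 2-fold difference from sham on each of the 3 arrays. With the scaling used here it called no mature strand in soleus. Of the 10 members, 0 were called after denervation (34.1% of all tested miRNAs were) and 0 after entrapment (38.2%). After decompression 1 was called, let-7b*, as higher than sham (40.5% of all tested miRNAs were called, 13.3% as higher). The sham value behind this call was only 1.60 times its own error, and the call was lost with the pseudocount. The counts depended on the processing. Members were called after entrapment, mature strands among them, without scaling, with the other set of miRNAs behind the percentile and with the processed values.

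Among the injury groups of soleus, limma called 0 of 10 members between entrapment and denervation (11.6% of all tested miRNAs), 0 of 10 between decompression and denervation (13.9%) and 0 of 10 between decompression and entrapment (0%). The only member with an unadjusted p under 0.05 in these comparisons was let-7d*, lower after entrapment than after denervation by a log2 difference of -2.42 ± 0.97 (SE, limma adjusted p = 0.166). Without denervation 3, let-7b* passed as higher after entrapment than after denervation (2.30, limma adjusted p = 0.0351) and as higher after decompression (3.07, limma adjusted p = 0.00974), although both denervation arrays that remain held it at the detection floor.

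The DRG groups below follow the labels of the scanner files. The deposited processed table names the entrapment and decompression arrays the other way round, and which naming is right is not settled. Under the other naming every DRG value of entrapment would be one of decompression and the reverse, the single call included. The mean of each mature strand in each DRG injury group lay above sham. let-7a, a member with 2 gene copies, read 2522 on sham, 3147, 3379 and 3199 after denervation, 2639, 3154 and 3082 after entrapment, and 2665, 2997 and 3098 after decompression. let-7c read 2567 on sham, 3049, 3413 and 3146 after denervation, 2960.0, 3579 and 3475 after entrapment, and 3039, 3399.5 and 3572 after decompression. Both lay above sham on all 9 arrays, as did let-7b, let-7d, let-7e and let-7i. How many of all tested DRG miRNAs did so was not counted. let-7f read 2211 on sham, 2718, 2622 and 2894 after denervation, 2067, 2477 and 2447 after entrapment, and 2106, 2369 and 2427 after decompression. For let-7f the 3 denervation arrays were above all other DRG arrays, and the share of all tested miRNAs with such a split was not counted. miR-98 ran from 109 to 151 against 122 on sham, and lay above sham on all 3 denervation arrays.

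The star strands went the other way in the DRGs. let-7b* read 30.0 on sham, 22.4, 17.0 and 23.0 after denervation, 20.9, 14.2 and 21.4 after entrapment, and 14.7, 15.6 and 14.1 after decompression. let-7d* read 30.5 on sham, 18.0, 10.8 and 16.9 after denervation, 15.4, 5.17 and 23.8 after entrapment, and 9.45, 10.07 and 5.65 after decompression. For both, the sham array was above all 9 injury arrays, a trait whose share over all tested miRNAs was not counted. That sham array also had the most miRNAs flagged as detected, 233. The counts were 213 to 225 after denervation, 183 to 186 after entrapment and 187 to 200 after decompression. The part of this difference in the dim star signals was not tested. For let-7d* the 3 denervation arrays were also above the 3 decompression arrays, while entrapment overlapped with both. How many of all tested miRNAs split in this way was not counted.

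Of these differences 1 passed. After decompression let-7b* fell to a log2 difference of -1.02 ± 0.25 from sham (SE, limma adjusted p = 0.0237, lower on 3 of 3 arrays), 1 of 10 members where 18.3% of the 219 miRNAs tested in the DRGs passed and 16.4% passed as lower. This call was lost without decompression 3 (limma adjusted p = 0.0550) and under 4 of the other ways of processing, and the adjusted p ranged from 0.00538 to 0.523 over all 18 alternatives. let-7d* had the larger difference, -1.91 ± 0.74 (SE, limma adjusted p = 0.105), and did not pass. It was 1 of 4 members at an unadjusted p under 0.05 after decompression, with let-7b*, let-7c (0.38 ± 0.14, SE, limma adjusted p = 0.101) and let-7i (0.35 ± 0.15, SE, limma adjusted p = 0.134). After denervation 0 of 10 members passed, against 0.457% of all tested miRNAs, with let-7a the only one at an unadjusted p under 0.05 (0.36 ± 0.13, SE, limma adjusted p = 0.221). After entrapment 0 of 10 passed, against 19.6%, with let-7c (0.37 ± 0.14, SE, limma adjusted p = 0.0961) and let-7b* (-0.69 ± 0.25, SE, limma adjusted p = 0.0827) at an unadjusted p under 0.05. The median difference of the mature strands was 0.26, 0.25 and 0.22 for denervation, entrapment and decompression, and that of all tested miRNAs was -0.02, -0.11 and -0.13. The glial miRNAs miR-338 and miR-219-5p summed to 8884 on sham and 11614 to 14181 on the injury arrays, a difference in the same direction as that of the mature strands. Single markers also moved with let-7b*. The endothelial miR-126* passed as lower than sham after entrapment (-1.69, limma adjusted p = 4.03e-05) and decompression (-1.68, limma adjusted p = 4.29e-05), and so did the neuronal miR-9 (-1.23, limma adjusted p = 0.000971, and -1.25, limma adjusted p = 0.000870), while miR-126 differed by -0.00 and -0.04. The other neuronal miRNAs did not go with miR-9, since 3 of the 5 lay above sham in both groups (median of the 5 0.12 in each). The 5 summed to 4049 on sham, 4279 to 4645 after entrapment and 4074 to 4725 after decompression. The part of these cells was not tested. The sign of the mature median turned for entrapment and decompression when the arrays were not scaled (-0.11 and -0.12).

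The 2-fold rule called 0 of 10 members in the DRGs after denervation (1.37% of all tested miRNAs) and 0 of 10 after entrapment (11%). After decompression it called 1, let-7d*, as lower (13.7% of all tested miRNAs), on arrays of which decompression 3 was not flagged as detected. let-7b* was at least 2-fold lower on 2 of the 3.

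**Figure D2:**
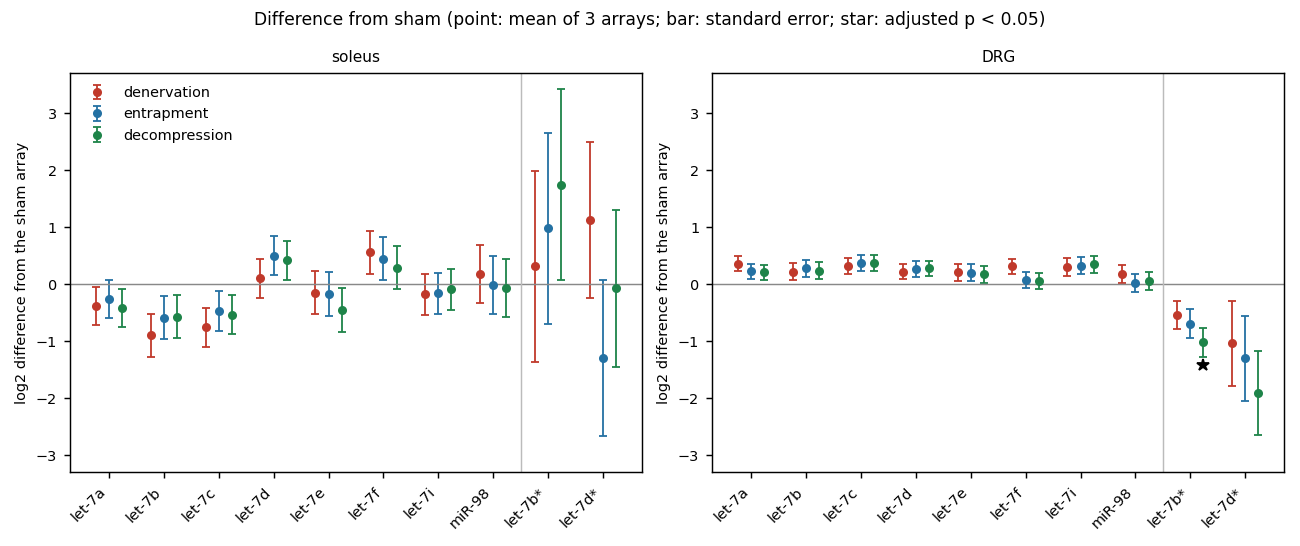
Difference of each member from the single sham array of its tissue, as a log2 difference on the y axis, with the 8 mature strands left of the grey line and the 2 star strands right of it. Points are means of 3 arrays, bars are limma standard errors, and the star marks the only difference past the threshold, let-7b* after decompression in the DRGs at -1.02.

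Between the injury groups of the DRGs many miRNAs differed, and no member passed with the scaling used here. Entrapment against denervation gave 0 of 10 members by limma, where 41.1% of all tested miRNAs passed, and decompression against denervation gave 0 of 10, where 36.5% did. Decompression against entrapment gave 0 of 10 members and 0% of all tested miRNAs, with no member at an unadjusted p under 0.05. let-7f was lower than after denervation in entrapment (-0.24 ± 0.10, SE, limma adjusted p = 0.0869) and in decompression (-0.26 ± 0.10, SE, limma adjusted p = 0.0733), and let-7b* in decompression (-0.48 ± 0.18, SE, limma adjusted p = 0.0676), at unadjusted p under 0.05. With the replicate number as a block let-7b* passed in decompression (limma adjusted p = 0.0486), and it also passed without denervation 2 or entrapment 2, as let-7f did without entrapment 1. The calls and the direction depended on the scaling, since 9 and 8 members passed as higher than after denervation with median scaling (let-7f at 0.40 in both) and 5 and 6 as lower without scaling. The 95% intervals of the mature strands between decompression and entrapment lay between -0.29 and 0.29, much narrower than those of the same comparison in soleus, which lay between -0.89 and 0.76.

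The G and C content of the members is given beside these differences as a description, and no test of it was run. let-7f and miR-98, with 31.8% G and C bases, and let-7a, with 36.4%, had the most negative DRG differences of the mature strands between entrapment and denervation, at -0.24, -0.16 and -0.14, and between decompression and denervation, at -0.26, -0.13 and -0.15. In soleus miR-98 at -0.18 and let-7f at -0.11 were also the lowest mature strands between entrapment and denervation, while let-7a was at 0.12. Between decompression and denervation let-7e, with 40.9%, was the lowest at -0.30. It was followed by let-7f at -0.27 and miR-98 at -0.23, with let-7a at -0.03. The DRG comparisons share the denervation arrays and divide the dimmer from the brighter arrays, and median scaling turned the 3 signs.

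Whether the change from sham differed between the tissues was tested with an interaction term over all 20 arrays (limma, 234 miRNAs). It passed for 2 of 10 members in denervation (23.5% of all tested miRNAs), 2 of 10 in entrapment (27.4%) and 1 of 10 in decompression (27.8%). The members were let-7b and let-7c, lower than sham in soleus and above it in the DRGs, and the sign of all 5 differences turned without scaling.

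The ratio of 2 members on the same array does not depend on how arrays are scaled to each other. Only its change between arrays is read here, since the size of a ratio of different probes is no ratio of abundance. In soleus the ratio of let-7d to let-7a was 0.265 on sham, 0.386, 0.383 and 0.348 after denervation, 0.418, 0.453 and 0.482 after entrapment, and 0.467, 0.463 and 0.493 after decompression. The sham array was the lowest, and denervation lay below entrapment and decompression without overlap. The ratio of let-7c to let-7f was 1.35 on the soleus sham array and 0.406 to 1.00 on the 9 injury arrays. let-7f was the member that most often set sham apart, in 6 of its 7 ratios.

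Of the 28 ratios among mature strands in soleus, 10 had the sham array outside the range of the 9 injury arrays, a share of 35.7% against 53.9% of all pairs of miRNAs measured on all soleus arrays. Ratios parted entrapment from denervation in 3 of 28 (32.5% of all pairs), decompression from denervation in 6 of 28 (34.3%) and decompression from entrapment in 1 of 28 (7.27%). Each share lay below that of all pairs. The pairs share members, and this difference was not tested.

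In the DRGs the ratios were steadier. let-7c to let-7f was 1.16 on sham, 1.12, 1.30 and 1.09 after denervation, 1.43, 1.45 and 1.42 after entrapment, and 1.44, 1.43 and 1.47 after decompression. The entrapment and decompression arrays were all above the sham and denervation arrays. let-7a to let-7c was 0.982 on sham, 0.990 to 1.03 after denervation, 0.881 to 0.892 after entrapment and 0.867 to 0.882 after decompression. Both ratios divided the arrays in the same way as their brightness did, and its part was not tested. Of the 28 ratios, 5 set the sham array outside the injury arrays (32.7% of all pairs), 10 parted entrapment from denervation (55.8%), 12 decompression from denervation (55.7%) and 1 decompression from entrapment (8.94%).

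**Figure D3:**
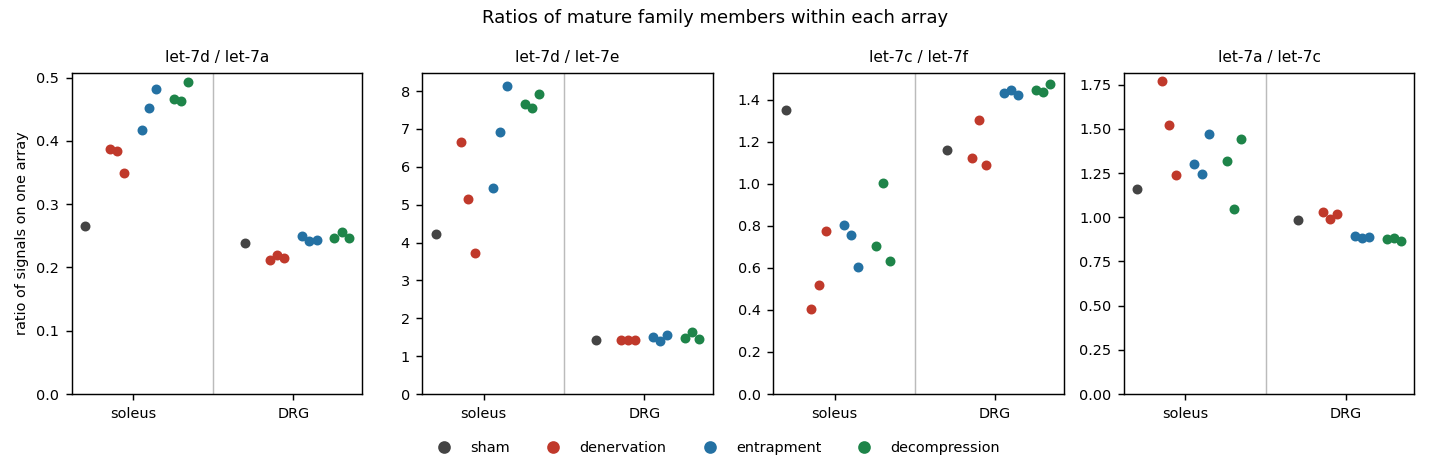
Ratio of the signals of 2 mature members on the same array, for 4 pairs, with 1 point per array and the y axis from 0. let-7d relative to let-7a and to let-7e is higher in soleus than in the DRGs without overlap, and let-7c relative to let-7f falls into separate ranges in the DRGs, 1.09 to 1.30 for sham and denervation and 1.42 to 1.47 for entrapment and decompression.

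The star strand was set against its own mature strand, again within arrays. The log2 ratio of let-7b* to let-7b in soleus was -8.16 on sham, -8.26, -8.52 and -4.08 after denervation, -7.15, -6.96 and -5.66 after entrapment, and -6.20, -5.09 and -6.25 after decompression. Denervation held both the lowest and the highest value, and the lowest 2 rest on the detection floor. That of let-7d* to let-7d was -5.89 on sham, -5.73, -6.05 and -2.82 after denervation, -8.15, -7.56 and -7.33 after entrapment, and -7.36, -4.11 and -7.66 after decompression. Denervation 3 and decompression 2 stood apart for both star strands, with let-7b* at 80.8 and 46.9 and let-7d* at 109.7 and 61.5 against at most 23.0 and 19.9 on the other 8 soleus arrays. The mature let-7b read 1368 and 1597 on these arrays, within the range of the others, and let-7d 773 and 1065, the first being its lowest soleus value.

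In the DRGs the log2 ratio of let-7b* to let-7b was -5.54 on sham, -6.09, -6.75 and -6.07 after denervation, -6.21, -6.99 and -6.34 after entrapment, and -6.66, -6.77 and -6.96 after decompression. That of let-7d* to let-7d was -4.30 on sham, -5.22, -6.10 and -5.35 after denervation, -5.42, -7.20 and -4.97 after entrapment, and -6.12, -6.26 and -7.08 after decompression. Sham was the highest of the 10 arrays for both. The injury groups of let-7b overlapped, and for let-7d denervation lay above decompression without overlap, with entrapment across both.

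An exact permutation test over the 280 ways to divide 9 injury arrays into groups of 3, whose smallest possible p is 0.00357, gave no difference between the injury groups past 0.05. For let-7b* the exact p was 0.686 in soleus and 0.257 in the DRGs, and for let-7d* it was 0.129 and 0.371. Between the tissues the mean log2 ratio of let-7b* to let-7b was -6.63 in soleus and -6.44 in the DRGs, a difference of -0.19 (two-sided exact permutation p = 0.730 over 16000 arrangements within conditions), and that of let-7d* to let-7d was -6.27 and -5.80, a difference of -0.47 (two-sided exact permutation p = 0.421). Adjusted over these 6 tests all p-values were 0.631 or higher. Leaving out soleus denervation 3 brought the soleus test of let-7b* to an exact p of 0.0250, with both denervation arrays that remain at the floor.

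**Figure D4:**
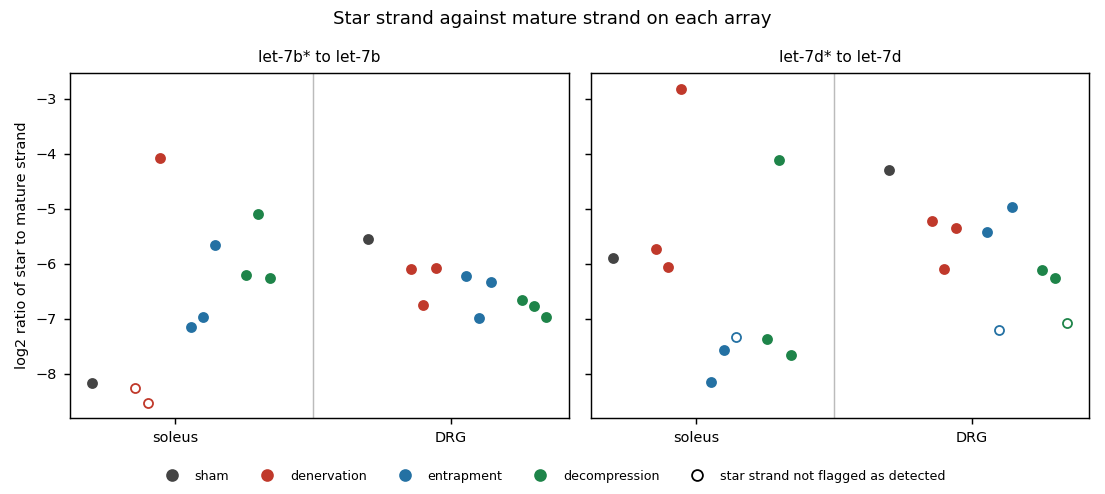
Log2 ratio of each star strand to its mature strand on every array, let-7b on the left and let-7d on the right. Open points mark arrays on which the star strand was not flagged as detected. Soleus ratios spread from -8.52 to -4.08 for let-7b and from -8.15 to -2.82 for let-7d, and the sham array is the highest of the DRG arrays in both panels.

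Soleus and DRGs were compared over all 20 arrays with the condition as a second term, on values scaled to the 102 miRNAs detected on every array. Here 7 of the 10 members passed as lower in soleus and none as higher, where 77.4% of the 234 tested miRNAs passed, 59.4% as lower and 17.9% as higher. let-7e differed the most, at 144 ± 29.8 in soleus and 557 ± 52.5 in the DRGs (mean of jointly scaled signals ± SD, n = 10 arrays each), a log2 difference of -1.97 ± 0.11 (SE, limma adjusted p = 1.14e-11). Its highest soleus value, 203, was below its lowest DRG value, 472. let-7c followed at -1.23 ± 0.11, with 1609.9 ± 340.0 against 3739.6 ± 453, and also without overlap. let-7i and miR-98 both differed by -1.02, let-7b by -0.86, let-7a by -0.71 and let-7f by -0.35, with limma adjusted p from 2.87e-08 to 0.00370. let-7d was the exception among mature strands, at 877 ± 146 in soleus and 819.5 ± 85.9 in the DRGs (limma log2 difference 0.09 ± 0.09, SE, adjusted p = 0.354). Values of let-7a, let-7i and miR-98 also did not overlap between the tissues, while those of let-7b, let-7d and let-7f did. The share of all tested miRNAs without overlap was not counted. The star strands did not pass (let-7b* -1.05, limma adjusted p = 0.0686, and let-7d* -0.38, limma adjusted p = 0.481).

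These differences have to be read against the median of all tested miRNAs, which was -0.94, the same as the median of the mature strands. Relative to it let-7d was higher in soleus and let-7e lower, while the other mature strands lay closer to it. The median of all tested miRNAs itself moved from -0.94 to 0.17 over the scalings. let-7e was lower in soleus and passed under all 9 other ways of processing (log2 differences of -1.97 to -1.07). let-7c, let-7i and miR-98 were lower in soleus in all 9, passing in 8, 6 and 5 of them. let-7a and let-7b were lower in 8 of 9, and let-7f in only 4, passing as higher in 1. let-7d was higher in all 9 and passed in 4.

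Scaling by a constant shifts all members of an array alike, so it cannot change their order. Measured from the mean of the 8 mature strands on each array, let-7d was 0.97 higher in soleus than in the DRGs on the log2 scale and let-7f 0.54 higher, while let-7e was 1.09 lower and let-7c 0.35 lower. let-7a, let-7b, let-7i and miR-98 were within 0.18 of 0. Of the 28 ratios 12 parted the 10 soleus from the 10 DRG arrays without overlap, a share of 42.9% that is near the 42.7% of all 5253 pairs of miRNAs. let-7e took part in 6 of the 12, let-7d in 5 and let-7b in 1. let-7d to let-7e was 3.72 to 8.13 in soleus and 1.39 to 1.64 in the DRGs, the pair being from different chromosomes. let-7d to let-7a, which has a copy near let-7d on chromosome 17, was 0.265 to 0.493 in soleus and 0.212 to 0.257 in the DRGs.

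**Figure D5:**
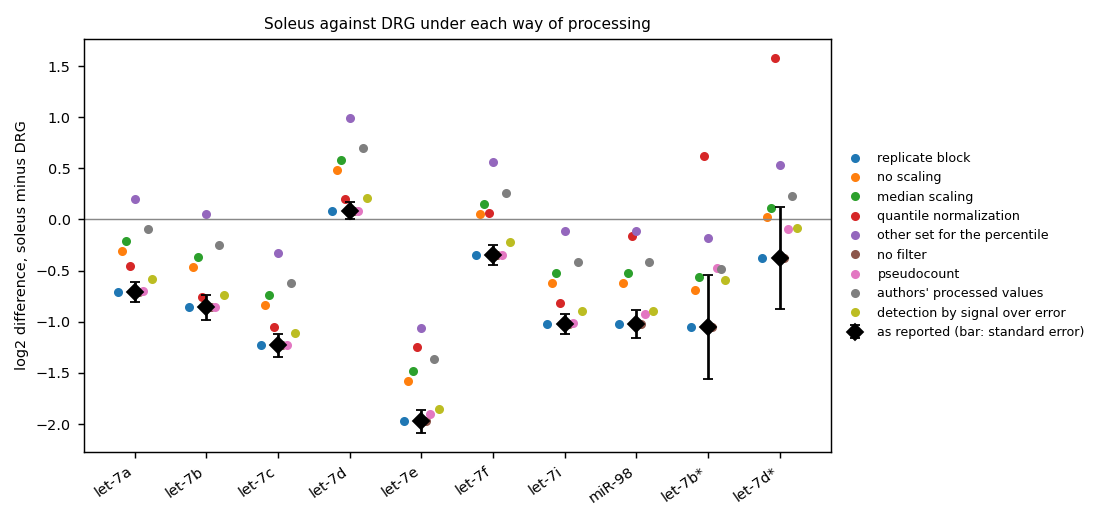
Log2 difference between soleus and DRGs for each member, with the reported value as a black diamond with its standard error and each other way of processing as a coloured point. let-7e is below 0 throughout (-1.97 to -1.07) and let-7d above it (0.09 to 1.00), while the points of let-7a, let-7b, let-7f and both star strands lie on either side of 0.

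Within a tissue the family kept its proportions to different degrees. The SD over the 10 arrays of the log2 ratio of 2 mature strands had a median of 0.354 in soleus (28 pairs, 0.158 to 0.662) and 0.105 in the DRGs (0.0415 to 0.172). let-7b and let-7c, neighbours in the genome that differ by 1 base, were the steadiest pair in soleus at 0.158, and let-7b and miR-98 the least steady. In the DRGs let-7c and let-7d, which differ by 3 bases and lie on different chromosomes, were the steadiest at 0.0415. They were followed by let-7b and let-7d, which differ by 4 bases, at 0.0445 and by let-7b and let-7c at 0.0544. Pairs that differ by 1 base had a median of 0.218 in soleus and 0.0810 in the DRGs.

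Outside the family, the miRNAs whose ratio to the mean of the detected mature strands varied least over the 10 arrays were miR-26a (SD 0.149), miR-101a (0.187) and miR-324-5p (0.196) in soleus, where 101 other miRNAs had a median of 0.579, and miR-27b (0.0425), miR-27a (0.0577) and miR-100 (0.0649) in the DRGs, where 164 others had a median of 0.197. These are descriptions over arrays of a tissue.

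The miR-99, miR-100 and miR-125 miRNAs are known to be encoded in clusters with let-7 genes, and their 5 measured members were miR-99a, miR-99b, miR-100, miR-125a-5p and miR-125b-5p. In soleus 3 of 5 passed as lower than sham after decompression by limma, where 31.8% of all tested miRNAs passed (miR-99b -1.76, miR-125b-5p -1.36 and miR-100 -1.0, limma adjusted p 0.0273 to 0.0484), where 0 of the 10 family members passed, and none passed after denervation or entrapment, where 2 and 3 of the 5 had an unadjusted p under 0.05. miR-125a-5p was lower after decompression than after denervation (-1.42, limma adjusted p = 0.0413). In the DRGs miR-125a-5p passed as lower than sham after entrapment (-0.49, limma adjusted p = 0.0158) and decompression (-0.51, limma adjusted p = 0.0146). It also passed as lower than after denervation in both, where 41.1% and 36.5% of all tested miRNAs passed, with miR-125b-5p beside it in entrapment (-0.26, limma adjusted p = 0.0472). All 5 were lower in soleus than in the DRGs, by -2.09 to -1.39 on the log2 scale, where 59.4% of all tested miRNAs were and the median of all was -0.94. The difference between these miRNAs and the family was not tested.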

How the data were processed

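RNA of 10 soleus and 10 DRG samples had been hybridised to single-colour Agilent rat miRNA arrays. The authors deposited each miRNA's total gene signal, an intensity that Agilent Feature Extraction 9.5.3 summed over probes after background subtraction and did not normalise between arrays, with its error and detection flag. They also deposited a table of processed values (unit score here). It was compared where the scanner signal was at least 20, which leaves out many star-strand values. All member values compared, and in the DRGs all values compared, equal the scanner intensity divided by a constant of the array within 1%. On 8 soleus arrays 1 to 4 other miRNAs were off. In the DRGs its columns named entrapment and decompression hold each other's arrays, and the labels of the scanner files were followed without its being settled which is right. The labels give Cy3-CTP amplification, the study's methods pCp-Cy3 ligation.

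Groups came from the labels. Signals were divided by the 75th percentile of each array (taken in soleus from 108 miRNAs with a detection flag throughout, in the DRGs from all 348, and for the tissue comparison from 102) and brought back to a common level. The floor (2.72, 2.28 and 2.32) was the median over arrays of the lowest detected value. All values below it, detected or not, were set to it before the log2 step. A miRNA needed a detection flag on at least 3 arrays to be tested with limma 3.58.1 in R 4.3.3, with the group as the term and 6 residual degrees of freedom in a tissue. The lone sham array was taken to have the spread of the injury groups. Nothing says that arrays of a group came from pooled or repeated RNA, and p-values measure the spread between these arrays. The rank-consistency LOWESS of the methods was an alternative, with a span of 0.75. The scripts were tested on simulated data. Named miRNAs were the members, 5 cluster partners where they passed or were counted, and in each tissue the 3 others with the steadiest ratio to the family. Members, lists and tests were chosen with earlier results of these data known. The number of arrays limits the precision.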

Additional observations from a re-analysis of the deposited data

Results flagged for a closer look

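The change from sham differed between soleus and DRGs by a test of the difference itself (limma, an interaction term in a fit over all 20 arrays) for let-7b and let-7c. Such a difference was common, as 23.5%, 27.4% and 27.8% of all tested miRNAs passed for denervation, entrapment and decompression. The fit takes 1 spread for both tissues, while the separate fits gave let-7c an SE of 0.34 in soleus and 0.14 in the DRGs for denervation against sham. For denervation the soleus change was lower than the DRG change by a log2 difference of -1.12 ± 0.36 for let-7b (SE, limma adjusted p = 0.0372) and -1.07 ± 0.30 for let-7c (limma adjusted p = 0.0200). For entrapment the differences were -1.06 ± 0.36 for let-7b (limma adjusted p = 0.0397) and -1.04 ± 0.30 for let-7c (limma adjusted p = 0.0212). For decompression let-7c differed by -1.07 ± 0.30 (limma adjusted p = 0.0173), and let-7b did not pass (-0.96, limma adjusted p = 0.0571). All these differences rest on the same 2 sham arrays, and all 5 turned to the other sign without scaling. let-7c passed in all 3 whichever injury array was left out. let-7b lost its call for denervation without any of 3 arrays (soleus denervation 1 or 2, DRG denervation 2) and for entrapment without any of 8 (soleus entrapment 2 or 3 or decompression 1, any DRG entrapment array, DRG decompression 2 or 3), with limma adjusted p up to 0.0721. No group had the 4 or more arrays that a test for a single outlying array needs.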

How the results depend on the processing

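Settings are named by what they change, and counts are members of 10 past the limma threshold unless the 2-fold rule is named. With the other set of miRNAs behind the percentile, soleus gave 2 for entrapment and 1 for decompression against sham and 2 for entrapment against denervation, and the DRGs gave 1 for entrapment against sham and 1 for decompression against denervation. The tissue comparison gave 4, and the 2-fold rule 3 for soleus entrapment. The tissue differences of let-7a, let-7b and let-7f were then 0.20, 0.050 and 0.56. Without scaling, the DRGs gave 1 for entrapment against sham, 5 for entrapment against denervation and 6 for decompression against denervation (let-7b at -0.42), the tissue comparison gave 2 with let-7f at 0.052, and the 2-fold rule gave 1, 4 and 4 in soleus for denervation, entrapment and decompression and 2 for DRG decompression. The difference of the change from sham between tissues was then called for 1 value of 30 in place of 5, and those 5 turned to 0.27 and 0.32 for let-7b and let-7c in denervation, 1.12 and 1.14 in entrapment and 0.78 for let-7c in decompression. With each tissue scaled on its own, 3 of them passed.

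Median scaling raised the median of all DRG miRNAs against sham by 0.73 in entrapment and decompression, and members past the threshold were 8 and 8 against sham and 9 and 8 against denervation, all higher. Members below denervation turned, in entrapment let-7a to 0.51, let-7b* to 0.49, let-7e to 0.64, let-7f to 0.40 and miR-98 to 0.48, and in decompression let-7a to 0.50, let-7e to 0.62, let-7f to 0.40 and miR-98 to 0.53. The 2-fold rule gave 1 for DRG entrapment, and the tissue difference of let-7f was 0.15. Quantile normalisation gave 1 for DRG entrapment and 0 for DRG decompression against sham, 1 by the 2-fold rule for soleus entrapment, and tissue differences of 1.58 for let-7d* and 0.062 for let-7f. Rank-consistent LOWESS gave 0 for DRG decompression against sham, 2 and 2 for DRG entrapment and decompression against denervation, and 1 and 1 by the 2-fold rule for soleus denervation and entrapment. The pseudocount gave 2 for DRG decompression against sham and 0 by the 2-fold rule for soleus decompression. The processed values, under their own column names, gave 0 for DRG decompression against sham, 1 and 1 for DRG entrapment and decompression against denervation, 1 for the tissues with let-7f at 0.26, and by the 2-fold rule 4, 9 and 0 in soleus and 1 and 0 for DRG entrapment and decompression. The cause was not tested for any of these settings.

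Within a tissue, arrays of different injury groups with the same replicate number correlated at -0.469 to 0.206 in soleus and -0.122 to 0.481 in the DRGs. Those with other numbers correlated at -0.474 to 0.549 and -0.501 to 0.325. Whether a soleus and a DRG array of the same group and number come from the same rat was not examined, and the labels do not say. With the number as a block, DRG decompression against denervation gave 1 member (let-7b* at -0.48, limma adjusted p = 0.0486), the tissue comparison gave 7, and the other comparisons of injury groups gave 0.

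Leaving out each injury array in turn, the exact p of the star ratio over injury groups ranged from 0.0250 to 0.904 for let-7b* and 0.0679 to 0.336 for let-7d* in soleus, and from 0.132 to 0.496 and 0.0679 to 0.743 in the DRGs. The tissue difference of the ratio ranged from -0.47 to 0.02 for let-7b* and -0.85 to -0.26 for let-7d*. Counts ranged from 0 to 1 for soleus denervation against sham and for soleus entrapment and decompression against denervation, each reaching 1 without denervation 3, from 0 to 1 for DRG entrapment against sham (let-7c at 0.46 without entrapment 1, limma adjusted p = 0.0371), from 0 to 2 for DRG decompression against sham (let-7b* lost without decompression 3, let-7i added without decompression 1, let-7d* without entrapment 2), from 0 to 1 for DRG decompression against denervation (let-7b* without denervation 2 or entrapment 2, let-7f without entrapment 1), from 7 to 8 for the tissues (let-7b* passing without soleus denervation 3 or decompression 2) and from 4 to 10 for the difference between tissues (10 without soleus denervation 3 or entrapment 1). The other limma counts were 0 throughout. By the 2-fold rule they ranged from 0 to 1 for soleus denervation and entrapment, from 1 to 2 for soleus and DRG decompression, and were 0 for the others.

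Of 1192 member values past no threshold in either setting, 209 changed sign, and signs of uncalled values are not to be relied on. Detection as signal over 3 times its error was added after the data were seen and moved no count by over 1.5 times. A single sham array per tissue, dim star strands and probes that differ by 1 base limit what these data show.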
